A study of Mus musculus with 6 samples.

Results

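The genes described here are Nf1, Rasa1, Hras, Nras, Spred1, Braf and Map2k1, members of the RAS-MAPK pathway that is altered in low-grade glioma. They were taken as the rows with these gene symbols, and all 7 were found among the 18058 genes of the deposited table. RNA was extracted from snap-frozen whole brainstems of naive, uninjected mice at 1 month of age. There were 3 wild type (WT) C57BL/6J mice and 3 Rag1-/- mice of the strain B6.129S7-Rag1tm1Mom/J. Each library came from a separate mouse. The Rag1-/- mice carry a germline loss of Rag1, whose product cuts DNA to join the segments of antigen receptors, and therefore lack mature T and B cells in every tissue. No cells had been injected into these mice, so the values are levels of the mouse genes in the host tissue into which glioma precursors were injected elsewhere in the study.

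RAS proteins are small GTPases that signal when bound to GTP. Exchange factors load them with GTP, and GTPase-activating proteins (GAPs) such as neurofibromin, the product of Nf1, switch them off. Active RAS recruits RAF kinases, RAF phosphorylates the MEK kinases, and MEK phosphorylates ERK. Loss of NF1 and fusion of BRAF are well-known drivers of pilocytic astrocytoma, the most common low-grade glioma of children.

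The 7 genes lie on 7 chromosomes. On mm10, Nf1 is at chromosome 11, 79339892 to 79581609 (plus strand), Braf at chromosome 6, 39603237 to 39725463 (minus strand), and Hras at chromosome 7, 141189934 to 141194004 (minus strand). Nras is at chromosome 3, 103058285 to 103067914 (plus strand), and Rasa1 at chromosome 13, 85214699 to 85289486 (minus strand). Map2k1 is at chromosome 9, 64185793 to 64253605 (minus strand). Spred1 is at chromosome 2, 117121071 to 117182277 (plus strand), 15.5 Mb from Rag1 itself. The Rag1 allele is named for its 129S7 origin, and whether DNA of that origin reaches Spred1 in these mice was not tested.

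The 250 bases upstream of the start were read from RefSeq (GRCm38.p6) for the 7 genes, all of which matched. Those of Nf1 and Nras are shown because these genes gave the lowest single library and the smallest p among the 7, and because their upstream sequences differ most in base composition. Capitals mark the GC box, the letters GGGCGG or, on the other strand, CCGCCC. The Nf1 sequence (chr11:79339642-79339891, plus strand) had none, and the Nras sequence (chr3:103058035-103058284, plus strand) had 2 that overlap each other by 1 base.
Nf1: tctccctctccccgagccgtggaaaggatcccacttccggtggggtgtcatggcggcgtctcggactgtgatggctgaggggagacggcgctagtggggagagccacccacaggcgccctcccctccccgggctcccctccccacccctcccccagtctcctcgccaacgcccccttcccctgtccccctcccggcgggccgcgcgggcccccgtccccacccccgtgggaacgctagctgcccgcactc
Nras: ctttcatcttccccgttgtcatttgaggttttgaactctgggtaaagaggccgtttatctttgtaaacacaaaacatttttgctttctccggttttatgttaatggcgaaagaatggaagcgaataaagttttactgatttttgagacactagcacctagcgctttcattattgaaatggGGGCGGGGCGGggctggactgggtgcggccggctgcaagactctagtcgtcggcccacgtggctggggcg
GC made up 74.0% of the bases upstream of Nf1 and 48.4% of those upstream of Nras, the highest and the lowest of the 7, against a median of 52.4% over 32851 RefSeq promoters. The CpG count ran from 14 in Nras to 31 in Spred1, against a median of 6. A GC box was found in 6 of the 7 genes, Nf1 being the exception, and in 32.7% of all promoters. The TATA box (TATAAA, either strand) was found in 0 of the 7 and in 12.4% of all promoters. The cAMP response element (TGACGTCA, its own reverse complement) was found in Braf, with 2 copies, and in 1.55% of all promoters. The CCAAT box (CCAAT or ATTGG) was found in Hras and Map2k1, and in 33.8% of all promoters. These are matches of letters in a fixed window and not measured binding sites.

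Values are in CPM, the reads of a gene scaled to a common library total. The estimated depth was 31600000 to 46400000 reads a library, so that 3 reads equal 0.0646 to 0.0951 CPM, a floor that covers counting error only. Differences were tested with limma-trend on log2(CPM + 0.1) over the 16762 genes averaging at least 0.1 CPM, and a fold change here is on that scale. Rag1 was at 0.246 ± 0.137 CPM (SD, n = 3) in WT and at 3.18 ± 0.750 CPM (SD, n = 3) in the other group. The log2 fold change was 3.30 (limma-trend, adjusted p = 0.0120). The transcript of the targeted gene was thus higher in the libraries labelled Rag1-/-, which are named by their label here. Gene-level values do not show which part of Rag1 the reads cover or whether its product is lost. Xist, the RNA that silences an X chromosome, reached 172 CPM in WT replicate 1 and 177 CPM in WT replicate 2, but at most 2.93 CPM in each remaining library. Ddx3y, on the Y chromosome, was at most 0.283 CPM in those WT libraries and at 45.2 to 56.2 CPM elsewhere. The labels do not give sex. By these genes WT replicates 1 and 2 read as female and all other libraries as male. Sex is thus partly confounded with genotype. Of the marker lists, neuron, astrocyte, oligodendrocyte and microglia genes were present in every library. The 6 hindbrain Hox genes summed to 1.46 CPM in the library labelled Rag1-/- replicate 2 and to 7.86 to 22.6 CPM in the other 5. Hormone genes of the pituitary summed to 654 CPM in WT replicate 3, 56.5 CPM in WT replicate 2 and 2.02 to 4.91 CPM elsewhere. Over all tested genes, 3.98% were higher and 14.4% lower in the Rag1-/- labelled libraries with no overlap. The 5 oligodendrocyte markers did not overlap between the groups and were all higher in the Rag1-/- labelled libraries, with sums of 22379 to 23917 CPM against 17230 to 20282 CPM. The sum of the 4 oligodendrocyte precursor markers was 414 to 450 CPM against 382 to 391 CPM in WT, with 2 higher and 1 lower without overlap. That of the 5 astrocyte markers was 2745 to 2873 CPM against 2574 to 2721 CPM in WT, with 1 higher without overlap. Choroid plexus markers summed to 460 CPM in WT replicate 3, 938 and 1191 CPM in the other WT libraries and 531 to 603 CPM in the other group, and skeletal muscle markers to 9.75 CPM in WT replicate 3 and 2.31 to 3.35 CPM elsewhere. Of the 4 endothelial markers 2 were lower without overlap, with sums of 120 to 129 CPM against 112 to 135 CPM in WT. Of the 5 measured T and B cell markers 2 were lower without overlap, with sums of 0.578 to 0.912 CPM against 0.732 to 1.47 CPM in WT. In whole tissue, fewer cells of a type and less RNA per cell cannot be told apart.

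All 7 genes were detected in every library, at mean levels between the 64.8th and the 91.8th percentile of the tested genes. None of the 7 passed an adjusted p of 0.05 between the groups, where 8 of 16762 tested genes did (0.0477%). At an unadjusted p up to 0.05 there was 1 of 7, Nras, where 11.6% of all tested genes passed. Both counts are near the background.

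**Figure D1:**
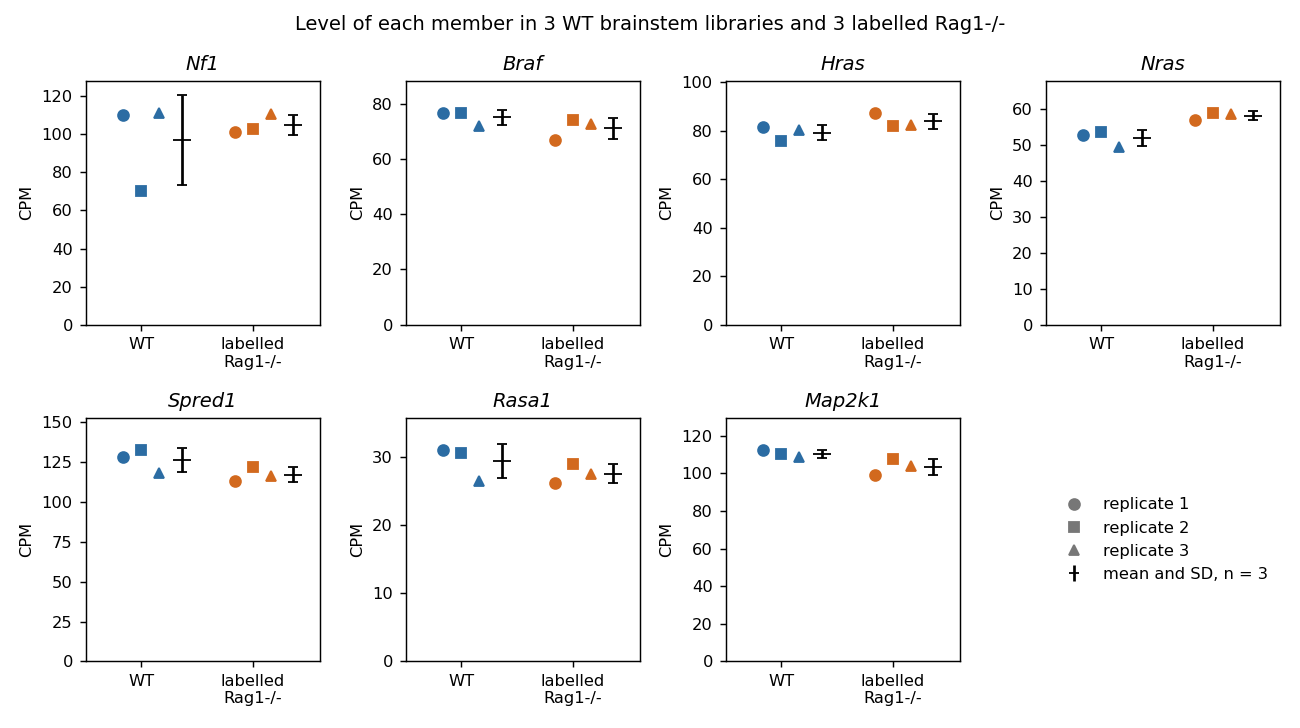
CPM of each of the 7 genes (vertical axes, from 0) in the 3 WT libraries (blue) and the 3 libraries labelled Rag1-/- (orange). Marker shapes give the replicate number, which is not stated to pair mice, and black bars the mean and SD. Nf1 in WT replicate 2, at 70.0 CPM, lies far below the other 5 libraries, and the 3 values of Nras labelled Rag1-/- lie above all 3 of WT.

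The GTPase-activating proteins were examined first. Nf1, which encodes neurofibromin, was at 110 CPM in WT replicate 1, 70.0 CPM in WT replicate 2 and 111 CPM in WT replicate 3. In the Rag1-/- labelled libraries it was at 101, 103 and 111 CPM. WT replicate 2 was the lowest of the 6 libraries by a wide margin, the other 5 lay close together, and the groups overlap. The means were 97.1 ± 23.5 CPM (SD, n = 3) in WT and 105 ± 5.17 CPM (SD, n = 3) in the Rag1-/- labelled libraries. The log2 fold change was 0.14 (95% interval -0.22 to 0.50, limma-trend, adjusted p = 0.745), and an exact permutation test, two-sided, returned p = 0.9. Without WT replicate 2 the log2 fold change turned to -0.08 (limma-trend, adjusted p = 0.562), so this 1 library sets the direction for Nf1.

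The low value was examined further because it concerns the gene whose human counterpart is lost in the injected cells. Nf1 in WT replicate 2 was at 65.2% of the mean of the other 5 libraries, which was 107 ± 4.84 CPM (SD, n = 5), a coefficient of variation of 4.51%. It rested on about 3248 reads, for which counting error alone gives a coefficient of variation of at most 1.76%. Each of the other 6 genes in that library was within 92.7% to 111% of its own median. The value of Nf1 lay 0.53 on the log2 scale below the lowest of the other 5 libraries. With a gap of at least 0.5 asked for, a rule chosen after this value was seen, 3 of 7211 genes averaging at least 20 CPM were as low in WT replicate 2 (0.0416%). The other 2 were Scube1, at 9.11 CPM against 20.9 to 38.6 CPM, and Nwd2, at 15.3 CPM against 28.7 to 48.4 CPM. Under the same rule the other libraries had 0 to 6 genes on the low side. On the high side WT replicate 3 had 25 genes and each of the other 5 libraries 0 to 3.

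On the minus strand 5 genes lie inside Nf1 in the deposited coordinates, and whether strand was used in counting is not stated in the sources used here. Omg (chromosome 11, 79500982 to 79504082), which encodes oligodendrocyte myelin glycoprotein, was at 129, 137 and 115 CPM in WT and at 139 CPM in each library labelled Rag1-/-. Evi2a (chromosome 11, 79526561 to 79530609) was at 48.3, 52.1 and 43.5 CPM in WT and at 56.4, 53.7 and 52.5 CPM in the Rag1-/- labelled libraries. Neither was low in WT replicate 2, where both had their highest WT value. In both genes the Rag1-/- labelled libraries lay above all of WT, as did 3.98% of all tested genes. The 5 oligodendrocyte markers did so too, and their part in the values of Omg and Evi2a was not tested. The log2 fold changes were 0.13 for Omg (limma-trend, adjusted p = 0.444) and 0.18 for Evi2a (limma-trend, adjusted p = 0.392). Evi2, Evi2b and AU040972 were each below 1 CPM in all 6 libraries. Evi2 reached at most 0.811 CPM, AU040972 at most 0.313 CPM and Evi2b at most 0.119 CPM, and Evi2b fell under the filter and was not tested. Of the other 6 genes, only Map2k1 overlapped a listed gene, Uchl4 on the plus strand, at 6.60 to 7.67 CPM.

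**Figure D2:**
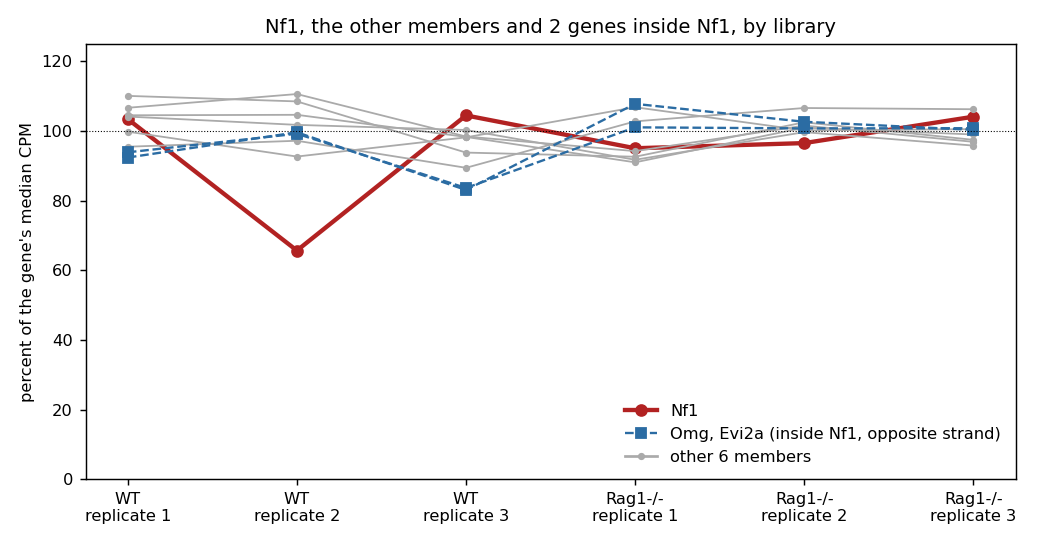
Level of each gene in each library (horizontal axis) as a percent of that gene's median CPM over the 6 libraries (vertical axis), for Nf1 (red), Omg and Evi2a inside it on the opposite strand (blue, dashed), and the other 6 genes (gray). Nf1 is at 65.7% in WT replicate 2 and between 95.1% and 104% elsewhere, and the other lines do not share this dip.

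The genes whose pattern over the 6 libraries was most like that of Nf1 were ranked by the root mean square distance of z-scored log2 values, over 14032 genes averaging at least 1 CPM. Nme3 was the closest (distance 0.0744), followed by Ccdc134 (0.138), Brat1 (0.247), Zfp940 (0.259) and Tcea2 (0.274). All 5 had their lowest value in WT replicate 2, which follows from the ranking, since that library sets the pattern of Nf1. The z-scores hide the size of the drop. Nme3 was at 19.2 CPM there and at 20.4 to 20.8 CPM elsewhere, and Brat1 at 14.2 CPM against 16.3 to 16.9 CPM. The drop of Nf1 was larger than in any of the 5.

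Rasa1, which encodes the p120 GAP, was at 31.0, 30.6 and 26.4 CPM in WT. It was at 26.1, 28.9 and 27.5 CPM in the Rag1-/- labelled libraries. WT replicate 3 lay inside the range of the other group while WT replicates 1 and 2 lay above it. The log2 fold change was -0.09 (95% interval -0.26 to 0.07, limma-trend, adjusted p = 0.637), with an exact permutation p of 0.3. With a term for the libraries high in Xist it turned to 0.05 (limma-trend, adjusted p = 0.765), and without WT replicate 3 it was -0.16.

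Of the RAS genes, Nras was at 52.8, 53.8 and 49.5 CPM in WT. In the Rag1-/- labelled libraries it was at 56.8, 59.0 and 58.8 CPM. The groups did not overlap, and every library labelled Rag1-/- was above every WT library. The means of 52.0 ± 2.26 CPM (SD, n = 3) and 58.2 ± 1.17 CPM (SD, n = 3) gave a log2 fold change of 0.16 (95% interval 0.06 to 0.27), or 11.9% on that scale. The unadjusted p of limma-trend was 0.00783, rank 379 of 16762 genes, and the adjusted p was 0.340. The exact permutation test gave p = 0.1, the smallest that 3 libraries against 3 allow. The unadjusted p of limma-trend stayed between 0.00197 and 0.0284 in the 15 alternative settings, and the adjusted p between 0.103 and 0.727. The sums of the oligodendrocyte, oligodendrocyte precursor and astrocyte markers were also higher in each of these libraries, and their part in the difference of Nras was not tested.

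Hras was at 81.7, 75.9 and 80.4 CPM in WT and at 87.4, 82.0 and 82.3 CPM in the Rag1-/- labelled libraries. The groups did not overlap, though WT replicate 1 and the library labelled Rag1-/- replicate 2 lay within 1 CPM of each other. The log2 fold change was 0.08 (95% interval -0.03 to 0.19, limma-trend, adjusted p = 0.524). Higher in every library labelled Rag1-/- were therefore 2 of the 7 genes, Nras and Hras, where 3.98% of all tested genes were.

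Spred1, whose protein binds neurofibromin and brings it to the membrane, was at 128, 133 and 118 CPM in WT. It was at 113, 122 and 117 CPM in the Rag1-/- labelled libraries. The groups overlap through WT replicate 3. The log2 fold change was -0.11 (95% interval -0.23 to 0.01, limma-trend, adjusted p = 0.473), with an exact permutation p of 0.2. Its paralogs had log2 fold changes of -0.10 (Spred2, adjusted p = 0.454 by limma-trend) and -0.06 (Spred3, adjusted p = 0.681 by limma-trend). Over the 15 alternatives these ranged from -0.12 to -0.06 for Spred2 and from -0.09 to -0.01 for Spred3, which was at -0.03 without Rag1-/- replicate 1 and -0.04 without WT replicate 1.

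Of the kinases, Braf was at 76.6, 76.7 and 72.1 CPM in WT and at 66.7, 74.0 and 72.6 CPM in the Rag1-/- labelled libraries. The groups overlap, and the lowest value was in the library labelled Rag1-/- replicate 1. The log2 fold change was -0.08 (95% interval -0.20 to 0.04, limma-trend, adjusted p = 0.565). Araf, another RAF kinase, had a log2 fold change of -0.02 with overlap (limma-trend, adjusted p = 0.884), which turned positive with quantile normalization (0.01) and with median-of-ratios rescaling (0.02).

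Map2k1, which encodes MEK1, was at 113, 110 and 109 CPM in WT and at 99.3, 108 and 104 CPM in the Rag1-/- labelled libraries. All 3 WT values lay above the other group, with WT replicate 3 at 108.5 CPM next to 107.8 CPM in the library labelled Rag1-/- replicate 2. The log2 fold change was -0.09 (95% interval -0.19 to 0.01, limma-trend, adjusted p = 0.458). Map2k1 was the 1 gene of 7 that was lower in every library labelled Rag1-/-, where 14.4% of all tested genes were. Map2k2, which encodes MEK2, had a log2 fold change of -0.01 (limma-trend, adjusted p = 0.935), which turned to 0.03 with quantile normalization and with median-of-ratios rescaling. Downstream, Mapk3, which encodes ERK1, had a log2 fold change of 0.05 with overlap (limma-trend, adjusted p = 0.619).

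**Figure D3:**
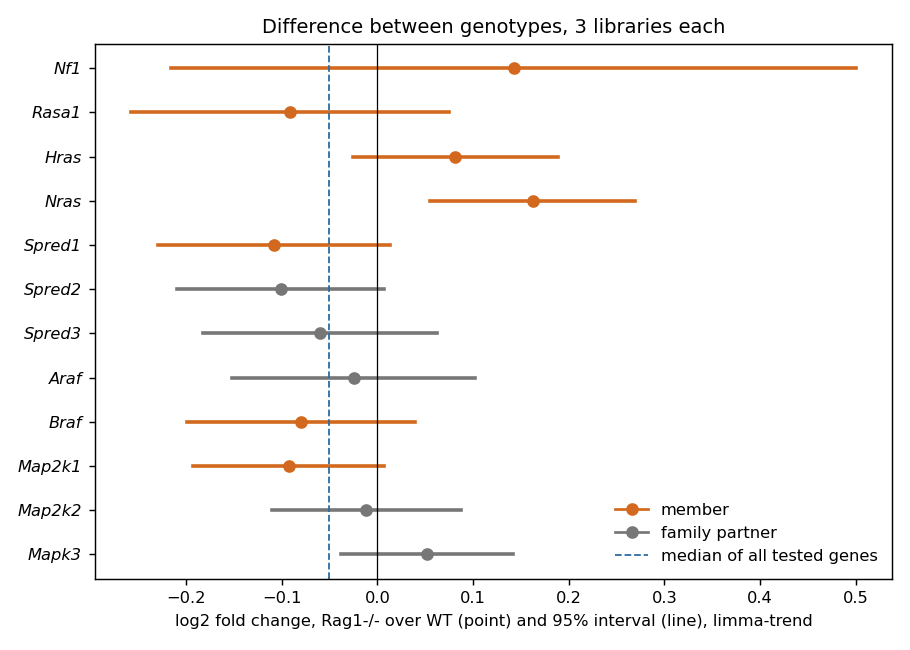
Log2 fold change of the Rag1-/- labelled libraries over WT (horizontal axis, points) with 95% intervals from limma-trend (lines) for the 7 genes (orange) and 5 family partners (gray), in the order of the cascade. The interval of Nras, 0.06 to 0.27, is the 1 shown that does not reach 0 before adjustment, and that of Nf1 is the widest; the dashed line is the median of all tested genes, -0.05.

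The sizes of the 7 differences were described without a test. Their median absolute log2 fold change was 0.09, against 0.09 over all tested genes and 0.06 over the 7211 genes averaging at least 20 CPM. Their median signed value was -0.08 against -0.05 over all tested genes. On the deposited scaling 80.4% of the tested genes with an unadjusted p up to 0.05 were lower in the Rag1-/- labelled libraries, and this share was 42.8% with quantile normalization and 45.5% with median-of-ratios rescaling. Of the 4 genes with negative values, Braf, Rasa1 and Spred1 had their lowest WT value in WT replicate 3, inside the range of the Rag1-/- labelled libraries. WT replicate 3 is the 1 WT library with low Xist, and it also stands apart from the other WT libraries in its pituitary, skeletal muscle and choroid plexus markers. With 1 such library these cannot be told apart, and their part in the values of the 3 genes was not tested.

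The patterns of the 7 genes over the libraries were compared by the same distance. Spred1 and Rasa1 were the most alike pair (distance 0.370), followed by Braf and Map2k1 (0.404), and all 6 distances among these 4 genes were at most 0.649. Nf1 was closest to Hras (0.841), which also had its lowest value in WT replicate 2, at 92.7% of its median. Nras was closest to Hras (1.09) and at least 1.39 from each of the other 5. These distances rest on 6 libraries that share the 2 groups and a common scaling.

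Levels of different genes were compared per kilobase of exon. Map2k1 was the highest at 43.9 ± 1.98 CPM per kb (SD, n = 6), followed by Hras at 26.3 ± 1.20, Spred1 at 18.0 ± 1.10 and Nras at 12.3 ± 0.838. Nf1 followed at 8.48 ± 1.33, Braf at 7.52 ± 0.380 and Rasa1 at 6.23 ± 0.458 CPM per kb. Nf1, with 11917 exon bases, thus took about as many reads as Map2k1, with 2436, at a much lower level per length. The ranges over the 6 libraries of neighbours in this order did not overlap, except for Nf1 (5.87 to 9.34 CPM per kb) with both Braf (6.86 to 7.89) and Rasa1 (5.72 to 6.80). The overlap of Nf1 with both came through WT replicate 2. The order was the same with the longest transcript as the length.

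Within families, a share of the summed CPM per kb does not depend on the library total. Map2k1 held 61.1% ± 1.27 of the MEK genes in WT and 59.8% ± 1.22 in the Rag1-/- labelled libraries (SD, n = 3 each), and Spred1 held 51.2% ± 0.797 and 50.8% ± 0.400 of the SPRED genes. Among 10 RAS GAP genes Nf1 held 11.8% ± 2.19 and 13.5% ± 0.781, with 9.28% in WT replicate 2, and Rasa1 held 9.45% ± 1.31 and 9.20% ± 0.119. Over the 15 shares compared, each overlapped between the groups, the exact permutation p was 0.2 or more, and the Benjamini-Hochberg adjusted p was 1 for each.

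**Figure D4:**
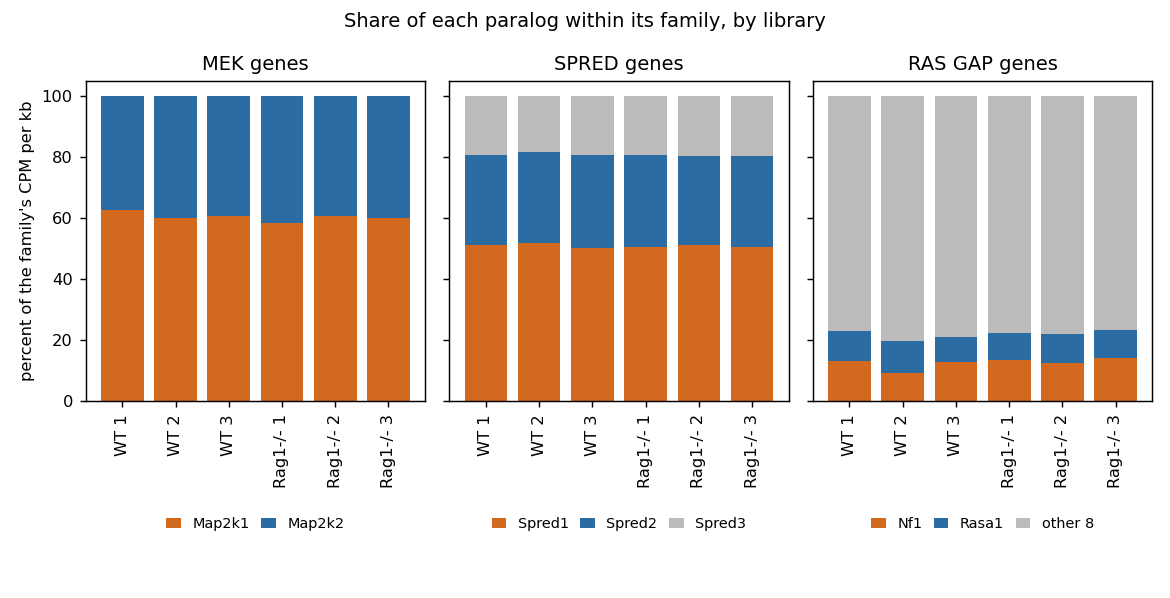
Percent of the summed CPM per kb of each family (vertical axis) taken by each of its genes, in each library (horizontal axis), for the MEK and SPRED families and for Nf1, Rasa1 and the other 8 of the 10 RAS GAP genes. Map2k1 and Spred1 take the largest share of their families in every library, and Nf1 takes 9.28% of the GAP genes in WT replicate 2 and 12.7% to 14.2% elsewhere.

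The wider pathway was described through 11 lists with 94 genes in all, of which 93 were measured and tested. None of the 93 had an adjusted p under 0.05, the lowest being 0.254 by limma-trend. At an unadjusted p up to 0.05 there were 6 lower and 5 higher, 11 of 93, beside 11.6% of all tested genes in either direction, 9.29% lower and 2.27% higher. With median-of-ratios rescaling these counts were 2 and 11, beside 4.15% of all tested genes lower and 4.98% higher. With quantile normalization they were 3 and 11, beside 3.82% lower and 5.10% higher. The median log2 fold change of the 93 was -0.06, 67 being below 0 and 26 above, beside a median of -0.05 and 11340 of 16762 below 0 over all tested genes.

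The 8 RAS GTPase genes had a positive median of 0.05 and the 9 genes for RAS processing, most of which attach lipids to RAS or move it, a median of 0.09. Each of these lists held 2 genes with an unadjusted p up to 0.05, all higher in the Rag1-/- labelled libraries, where 2.27% of all tested genes were higher at that p, and 3 genes higher without overlap, where 3.98% of all tested genes were. Rras2, a RAS-related GTPase, was at 11.7, 11.5 and 11.2 CPM in WT and at 13.5, 15.8 and 16.7 CPM in the Rag1-/- labelled libraries, without overlap (log2 fold change 0.41, limma-trend, adjusted p = 0.254). Golga7, whose product forms the RAS palmitoyltransferase with that of Zdhhc9, was at 116, 122 and 111 CPM in WT and at 135, 133 and 134 CPM in the Rag1-/- labelled libraries (log2 fold change 0.20, limma-trend, adjusted p = 0.268). Zdhhc9 itself had a log2 fold change of 0.10 (limma-trend, adjusted p = 0.431). The lowest of the processing genes was the enzyme Icmt, at -0.10 (0.02 without WT replicate 3, and -0.33 with the Xist term, limma-trend, adjusted p = 0.061).

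In the other 9 lists the median was negative, from -0.02 for the RAF, MEK and ERK kinases to -0.13 for the ERK phosphatases. All 9 of these medians moved up under the other scalings, to between -0.05 and 0.01 with quantile normalization and between -0.09 and 0.02 with median-of-ratios rescaling. The kinases turned to 0.01 and 0.02, the ERK phosphatases moved to -0.002 and -0.09, and the ERK output genes to -0.03 and -0.05. The medians of the RAS GTPases and of the RAS processing genes were positive under both. Of the 10 RAS GAP genes 9 were below 0 and Nf1 above, beside 11340 of 16762 genes below 0, and with quantile normalization 7 were below 0 and with median-of-ratios rescaling 8. The lowest was Rasa4 at -0.20 (over the 15 alternatives, -0.39 with the Xist term to -0.11 without WT replicate 3). Of the exchange factors, Rasgrf2 was the lowest at -0.16 (-0.21 to -0.09, the latter without Rag1-/- replicate 1) and Rasgrp4 the highest at 0.12, a value that was 0.02 without Rag1-/- replicate 2 and 0.23 without Rag1-/- replicate 1. Receptor adaptors ran from Crkl, -0.09 (-0.10 to -0.04), to Shc4, 0.07 (0.03 without Rag1-/- replicate 1, 0.14 without Rag1-/- replicate 2). The SPRED and Sprouty inhibitors ran from Spred1 to Spry1, at 0.12 (0.09 to 0.17). Of the scaffolds and modulators averaging at least 1 CPM, Ksr2 was the lowest at -0.24 (-0.41 with the Xist term, -0.16 without WT replicate 3). Cnksr3 was the highest at 0.20, with 0.33 without WT replicate 3 and -0.05 with the Xist term. None of these had an adjusted p under 0.05 by limma-trend.

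Of the ERK phosphatases, several of which are themselves induced by ERK signaling, Dusp1 was at 19.8, 21.2 and 21.1 CPM in WT and at 15.4, 17.9 and 15.3 CPM in the Rag1-/- labelled libraries. The groups did not overlap (log2 fold change -0.36, limma-trend, adjusted p = 0.254). Dusp4 was at 6.84, 6.72 and 5.83 CPM in WT and at 4.91, 5.35 and 4.98 CPM in the Rag1-/- labelled libraries, also without overlap. Its log2 fold change was -0.34 (limma-trend, adjusted p = 0.340), and -0.20 with the Xist term. Dusp6, in the phosphatase and the ERK output lists, was at -0.02 with overlap (limma-trend, adjusted p = 0.914). Of the 7 phosphatases 2 were lower and 1 higher without overlap, and of the 10 ERK output genes 1 lower and 0 higher. Of all tested genes 14.4% were lower and 3.98% higher in that way. Dusp7, which dephosphorylates ERK in the cytoplasm, had a log2 fold change of 0.15 (limma-trend, adjusted p = 0.373), and Dusp5 had one of -0.77 that rests on 7.33 CPM in WT replicate 3 against 1.56 to 2.91 CPM in the other 5 libraries. The 10 ERK output genes had a median of -0.09, with Dusp4 the lowest. Phlda1 was the highest, at 0.14 (0.08 without WT replicate 3, 0.26 with the Xist term). Other genes altered in low-grade glioma had a median of -0.07 over 12 genes, and 0 of the 12 passed an unadjusted p of 0.05. The highest of those averaging at least 1 CPM was Mybl1, at 0.06 (-0.15 without WT replicate 3, 0.46 with the Xist term).

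**Figure D5:**
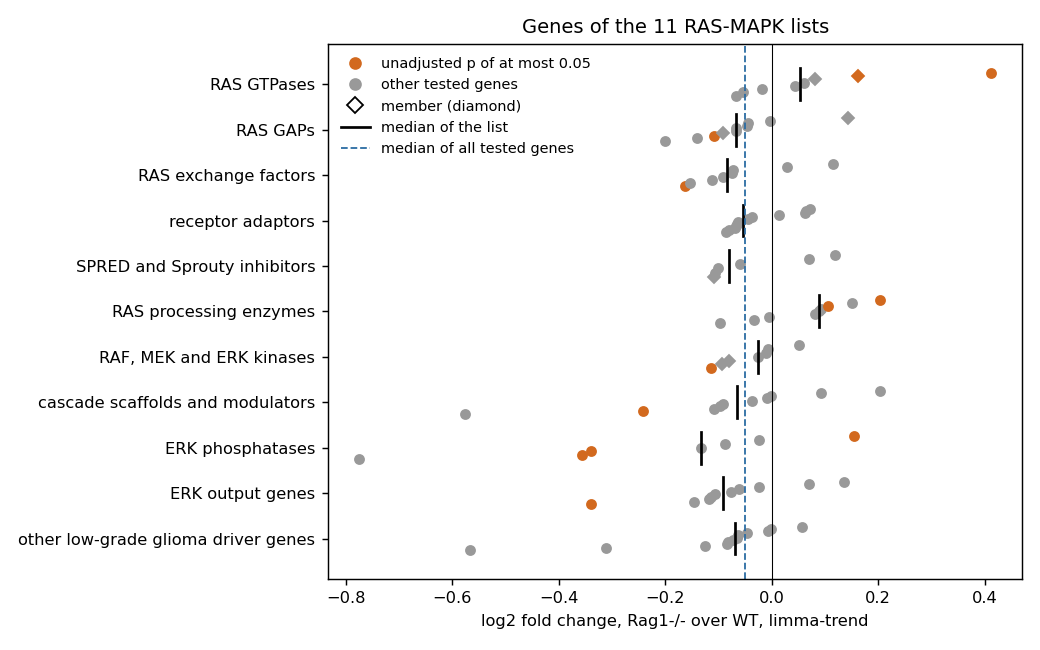
Log2 fold change of the Rag1-/- labelled libraries over WT (horizontal axis) for every tested gene of the 11 lists (rows), with the 7 genes as diamonds, genes with an unadjusted p up to 0.05 in orange and the median of each list as a black line. The RAS GTPase and RAS processing lists have medians above 0, at 0.05 and 0.09, and the other 9 lie below 0, of which the RAF, MEK and ERK kinases turn positive (0.01 and 0.02) under the other 2 scalings; no gene has an adjusted p under 0.05.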

How the data were processed

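The authors aligned reads to mm10 with STAR 2.5.3a and counted them on RefSeq transcripts in Partek Flow. The deposited values are CPM with an offset of 0.0001. Low values gave 1 read as a step of CPM, but only 85.3% to 86.4% of them came out whole (tolerance 0.1 read). Counts could therefore not be rebuilt, and no count test was made.

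From the deposited CPM, log2(CPM + 0.1) was tested with limma-trend (limma 3.58.1, R 4.3.3) over 16762 genes averaging at least 0.1 CPM, with Benjamini-Hochberg adjustment over all of them, and 1296 genes were not tested. The pseudocount understates changes of low genes. The fit was tested on simulated data. Single genes and family shares were also tested with exact two-sided permutation tests (smallest p 0.1). Exon lengths came from GENCODE transcripts of the same build. Ends are given as 1 base before the deposited stop. Of 10271 genes with an identical start, 70.9% had a stop 1 past the RefSeq end.

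The members and lists were chosen with earlier results of these data known. Genes named are the 7 members, 5 family partners, the extremes of each list with a mean of at least 1 CPM, overlapping genes and the 5 closest in pattern to Nf1. Scube1, Nwd2, Zdhhc9, Dusp1 and Dusp6 were named after their values were seen. Spry3 is not analysed here, and some partner genes and the family shares that need them are not reported here. Alternatives were 2 pseudocounts, 2 filters, no trend, 2 scalings, a replicate block, a term for Xist, each library left out in turn and, for shares, no length.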

Additional observations from a re-analysis of the deposited data

How the results depend on the processing

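No member reached an adjusted p of 0.05 by limma-trend in any of the 15 alternatives, and Braf, Hras, Nras, Spred1 and Map2k1 kept their direction in all of them. Their log2 fold changes ranged from -0.110 to -0.0208 for Braf, 0.0498 to 0.126 for Hras, 0.127 to 0.234 for Nras, -0.156 to -0.0133 for Spred1 and -0.122 to -0.0484 for Map2k1. The values of Braf and Spred1 nearest 0 came with the Xist term, and Braf was at -0.0351 without Rag1-/- replicate 1, Hras at 0.0498 without WT replicate 2 and at 0.0514 without Rag1-/- replicate 1, and Spred1 at -0.0714 without WT replicate 2. Rasa1 was at -0.165 without WT replicate 3, and at -0.0499 without WT replicate 1, -0.0603 without WT replicate 2 and -0.0552 without Rag1-/- replicate 1. Leaving out 1 library moved the log2 fold change of Nf1 between -0.0779 (without WT replicate 2) and 0.256. The term for libraries with Xist over 100 CPM leaves the genotype difference to WT replicate 3 against the libraries labelled Rag1-/-, and with it the log2 fold change was -0.0851 for Nf1, 0.0547 for Rasa1, 0.0945 for Araf and -0.0503 for Cnksr3. Quantile normalization gave 0.00945 for Araf and 0.0325 for Map2k2, and median-of-ratios rescaling gave 0.0195 and 0.0328. With 1 library left out, Araf ranged from -0.0847 to 0.00953, Map2k2 from -0.0412 to 0.0144, Icmt from -0.171 to 0.0190 and Mybl1 from -0.146 to 0.183. The difference in family share then ranged from -0.961 (without WT replicate 3) to 0.326 (without WT replicate 2) percentage points for Rasa1 and from 0.393 (without WT replicate 2) to 2.36 for Nf1. It ranged from -1.89 to -0.619 (without WT replicate 1; -0.693 without Rag1-/- replicate 1) for Map2k1 and from -0.818 (without WT replicate 3) to -0.0270 (without WT replicate 2) for Spred1, which was at -0.222 without Rag1-/- replicate 1 and -0.615 without Rag1-/- replicate 2. Without length the Nf1 difference was 2.63.

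The number of all tested genes with an adjusted p under 0.05 by limma-trend was 8, and it was 4 with a pseudocount of 0.01, without a filter and with a mean CPM of at least 1, 2 without the trend, 5 with quantile normalization, 134 with the Xist term, and between 2 and 24 with 1 library left out, the most without WT replicate 3. The number with an unadjusted p up to 0.05 then ranged from 1113 (without Rag1-/- replicate 1) to 2025, against 1938. Pathway genes with an unadjusted p up to 0.05 numbered 6 lower and 5 higher, 3 and 11 with quantile normalization (all tested genes: 3.82% and 5.10%), 2 and 11 with median-of-ratios rescaling (4.15% and 4.98%), and 11 higher with the Xist term (3.96%), and the lower ones ranged from 3 (without Rag1-/- replicate 1; all tested genes 5.18%) to 16 (without WT replicate 3; 9.31%) with 1 library left out. The log2 fold change of Dusp5 was -1.78 with the Xist term, set by WT replicate 3 (7.33 CPM), and -0.27 without that library. Members with unadjusted p up to 0.05 numbered 1, and 2 (Nras, Hras) with quantile normalization (all genes: 1495 of 16762) and median-of-ratios rescaling (1530). Without WT replicate 3 they were Nras, Spred1 and Rasa1 (1946 of 16721), and without Rag1-/- replicate 2 Nras and Map2k1 (1722 of 16770).

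Replicate numbers are not stated to pair the samples. The correlations of same-numbered deviations were 0.09, -0.22 and -0.02, which cannot settle it with so few mice. With the replicate block 3 genes in all, and no member, had an adjusted p under 0.05 by limma-trend. Counting error gives each member a coefficient of variation of at most 3.33% in any library.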
